A study of Homo sapiens with 20 samples.

Results

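Chromatin accessibility at 32 direct target genes of the tumour suppressor p53 was described from ATAC-seq peak lists of LOVO and RKO cells, established human colon adenocarcinoma lines. ATAC-seq uses a transposase that cuts and tags DNA where chromatin is open, and a peak is an interval with many such insertions. The genes were chosen by name as widely known p53 targets, all 32 matched a RefSeq symbol, and they were set beside 20037 protein-coding genes. In each of 10 deposited hg38 peak lists, intervals over the gene body and 10 kb either side were recorded (the locus), and those within 1 kb of an annotated end of the gene (gene-end intervals) were kept apart.

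The samples were LOVO or RKO cells with a short hairpin RNA against METTL3 (shMETTL3) and olaparib, untreated shMETTL3 cells, cells with a control hairpin (shControl) and olaparib, and untreated shControl cells. METTL3 is the RNA methyltransferase that places N6-methyladenosine, and olaparib inhibits poly(ADP-ribose) polymerase; its dose and duration, the hairpin sequences and any check of the knockdown are not in the labels. The labels list 20 samples, in each line 2 of each group with shMETTL3, olaparib or both, and 4 of untreated shControl, 2 of them from a second batch. The peak lists are per group, 1 for each of the groups with shMETTL3, olaparib or both and 2 for untreated shControl of each line, so there are no replicate values and no test between groups was possible. In 6 lists each interval carries a score; the other 4, untreated shMETTL3 and an untreated shControl list of each line, hold intervals only and are called merged here. Lists were compared within a form, and the 2 untreated shControl lists of a line, which differ in form and perhaps in batch, gave the only measure of spread.

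The p53 protein is a transcription factor that is stabilised after DNA damage, when kinases release it from the ubiquitin ligase MDM2. It binds pairs of short half-sites and turns on genes for cell cycle arrest, apoptosis, DNA repair and antioxidant metabolism, along with its own inhibitors. The peak lists measure open DNA and neither binding of the factor nor transcription.

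The sequences below show where p53-like letters lie under the intervals. RefSeq promoter windows (GRCh38.p14, from 250 bases before to 50 after a listed transcription start) were given for 26 of the 32 genes; none is shown for TNFRSF10A, TNFRSF10B, GADD45A, RRM2B, PHLDA3 and TP53INP1. A p53 half-site of 10 bases, whose pattern reads the same on both strands, was searched by its standard degenerate pattern. It was present in 6 of the 26 genes (23.1%) and in 8.07% of 15843 protein-coding genes with a promoter window. Exact half-sites with a spacer of 0 to 13 bases between them occurred in DDB2 alone of the 26 (3.85%) and in 4 genes of 15843 (0.0252%), the others being DYNC2H1, MCC and PTCHD4. Pairs with a spacer of 0 or 1 base and up to 2 mismatches in all, with the central C and G of each half-site kept, occurred in MDM2, FAS, DDB2 and AEN (15.4%), and in 0.669% of all promoters. Capitals mark the half-sites, and a match is a description of letters and not of binding.
DDB2, chr11:47214979-47214999, plus strand: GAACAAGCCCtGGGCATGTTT
FAS, chr10:88991309-88991328, plus strand: GGACAAGCCCTGACAAGCCA
AEN, chr15:88621306-88621325, plus strand: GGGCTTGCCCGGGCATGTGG
PLK2, chr5:58460209-58460218 with 8 bases either side, minus strand: gcgggacaAGACTTGCTTcccggcca
SESN1, chr6:109009028-109009037 with 8 bases either side, minus strand: tgtcgtctGGACAAGTCTccacaagt
FDXR, chr17:74872996-74873005 with 8 bases either side, minus strand: gcaggagcGGGCTTGCCCtgcggagc

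For MDM2 the whole of the 161 bp interval that untreated RKO shMETTL3 cells had at this gene is shown, chr12:68808873-68809033, plus strand, with the pair of half-sites (bases 51 to 70, 2 mismatches) in capitals and the internal listed start at base 145.
MDM2: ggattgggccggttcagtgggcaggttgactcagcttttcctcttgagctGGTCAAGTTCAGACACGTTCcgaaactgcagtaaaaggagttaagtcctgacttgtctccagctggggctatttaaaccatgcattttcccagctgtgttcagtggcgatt

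An end of most of these genes was open in most lists. A gene-end interval stood in all 10 lists at 17 of the 32 genes (53.1%), against 20.1% of all protein-coding genes, and in none of the lists at FAS and AEN (6.25%, against 35.4%). CDKN1A, FAS and AEN have a listed start 2251, 25628 and 10941 bp inside the annotated gene, beyond the reach of the gene-end windows. When listed starts were counted too, 18 of the 32 genes (56.2%) had an interval in all 10 lists, against 21.7%, and none lacked one in every list, against 32.6%. Per list, 29, 21, 29, 29 and 27 of the 32 genes had a gene-end interval in LOVO (shMETTL3 with olaparib, untreated shMETTL3, shControl with olaparib, scored shControl, merged shControl), and 29, 22, 27, 28 and 29 in RKO in the same order.

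**Figure D1:**
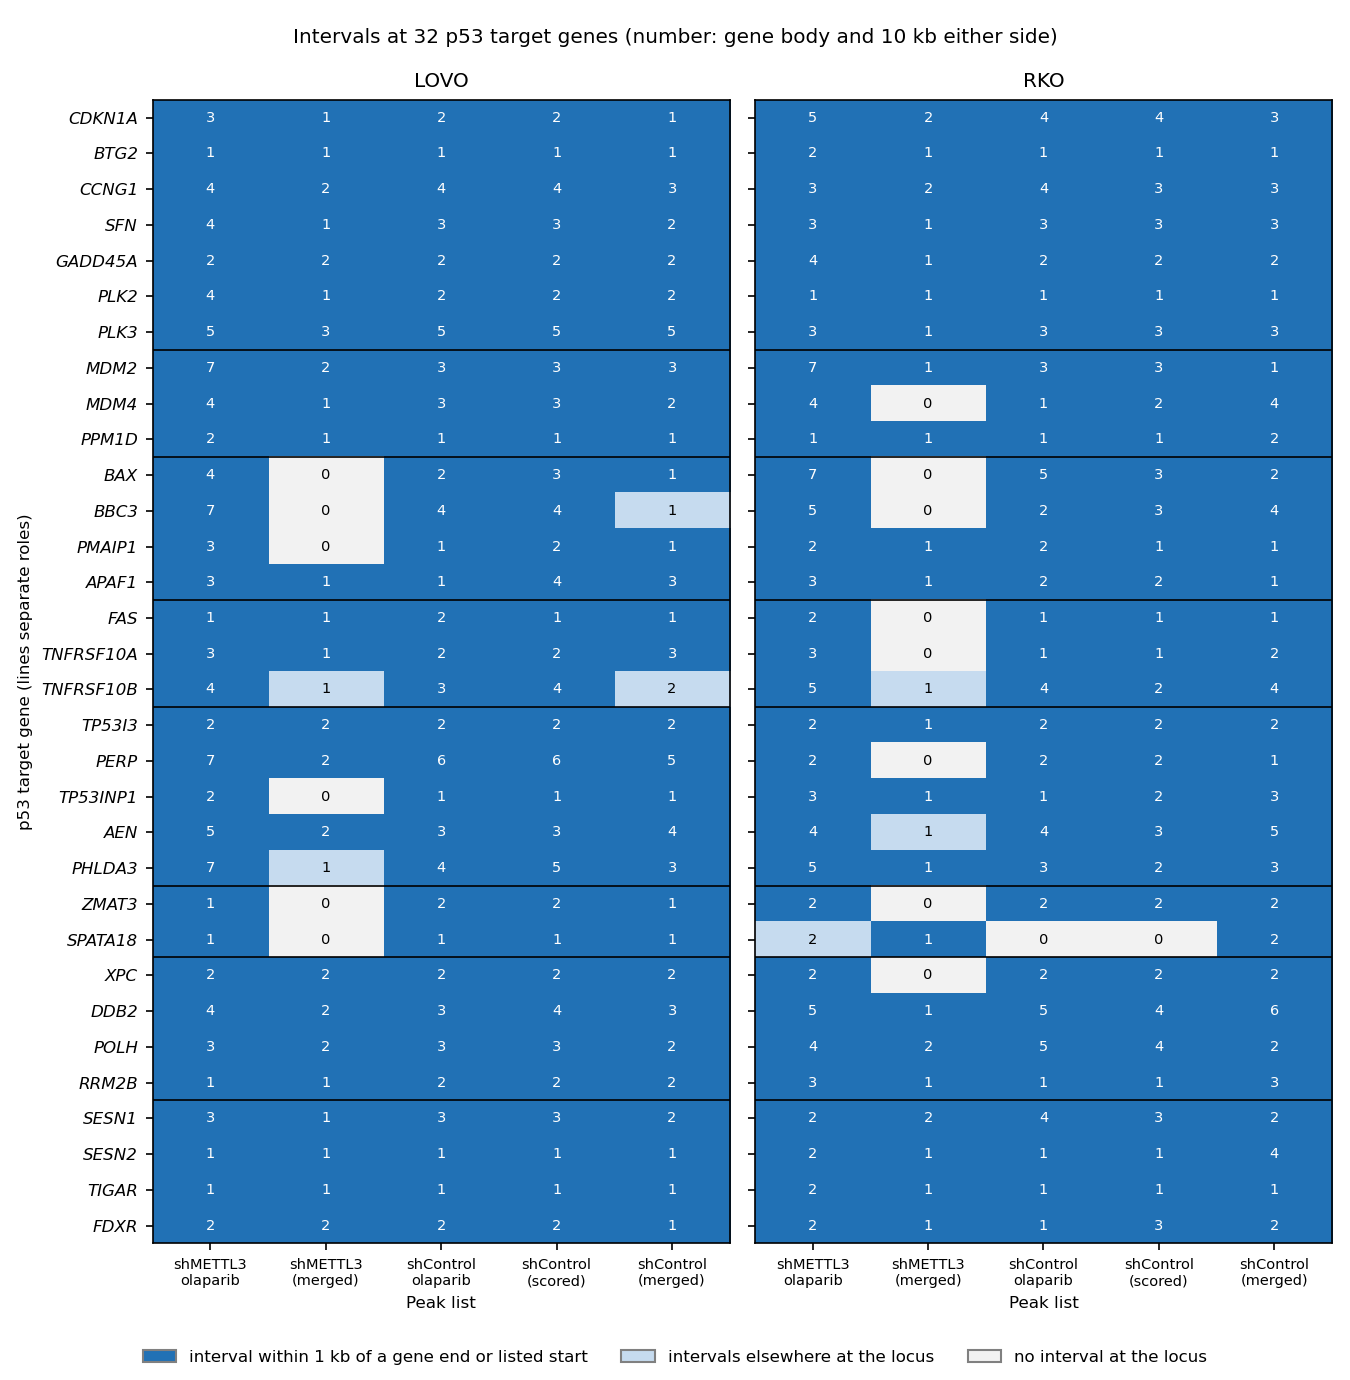
Each cell gives the number of intervals at the locus of a p53 target gene (rows, grouped by role) in a peak list (columns), with LOVO left and RKO right; the shade says whether any lay within 1 kb of a gene end or listed start. The pale cells lie mostly in the untreated shMETTL3 columns, where 6 genes in LOVO and 8 in RKO had no interval at the locus. The share of all genes with an empty locus in these lists is not given here.

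**Figure D2:**
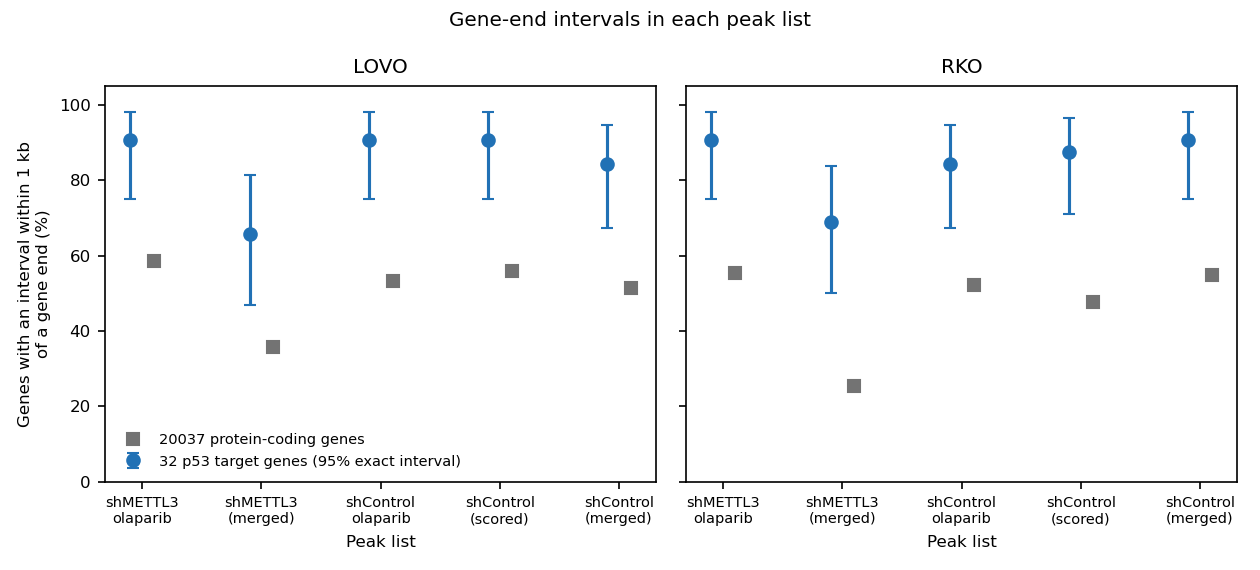
Share (%) of the 32 p53 target genes (circles, 95% exact binomial interval, counting error only) and of 20037 protein-coding genes (squares) with a gene-end interval in each list. The untreated shMETTL3 lists are the lowest of each line for both, at 65.6% and 68.8% of the p53 targets and 35.8% and 25.3% of all genes.

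Untreated shMETTL3 was compared with untreated shControl, among the merged lists, to ask how chromatin at the p53 targets differed with the hairpin against the RNA methyltransferase subunit. BAX, the effector that permeabilises mitochondria, and ZMAT3, an RNA-binding zinc finger protein, had no interval left at the locus in either line, and they were the only 2 of the 32 that lost their gene-end interval in both. BBC3 also had no interval in untreated shMETTL3 of either line, but its merged LOVO shControl list had no gene-end interval to lose. The shares of all genes with an empty locus, or with a loss in both lines, are not given here. These counts thus do not set the genes apart. In LOVO 6 of 27 genes (22.2%, 95% exact binomial interval 8.62 to 42.3) lost the gene-end interval, against 31.2% of all genes: BAX, PMAIP1, TP53INP1, PHLDA3, ZMAT3 and SPATA18. In RKO 8 of 29 (27.6%, 12.7 to 47.2) lost it, against 54.1% of all genes: MDM4, BAX, BBC3, TNFRSF10A, TNFRSF10B, PERP, ZMAT3 and XPC. No gene gained one in LOVO (0 of 5, against 0.813%), and CDKN1A did in RKO (1 of 3, against 0.321%). At listed starts 4 of 24 were lost in LOVO, against 29.5%, and 10 of 26 in RKO, against 53%.

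The list sizes moved with this comparison and their part in it was not tested: untreated shMETTL3 held 16417 intervals in LOVO and 6916 in RKO, against 33474 and 27978 in the merged shControl lists. With the longer list of each pair cut to the length of the shorter by width, 3 genes lost and 7 gained a gene-end interval in RKO. The share of all genes under this cut is not given here, so these counts cannot be set beside it. A shorter list does not by itself show closed chromatin, and depth is unknown from peak lists.

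Where a gene-end interval was kept, the intervals at the gene ends together covered fewer bases with shMETTL3 at nearly all genes. The sum also falls where a separate interval at the other end is lost. At PLK2 in LOVO, 759 bp at the other end was lost, while the start interval was 967 bp in shMETTL3 and 1208 bp in shControl. In LOVO the summed width of the gene-end intervals was smaller at 20 of 21 kept genes, with a median ratio of shMETTL3 to shControl of 0.749 (0.678 over all genes). FDXR, a mitochondrial electron donor enzyme, was the exception, at 978 bp in shMETTL3 and 972 bp in shControl. In RKO it was smaller at 21 of 21, with a median ratio of 0.288 (0.308 over all genes). The ratios in RKO ran from MDM2, at 161 bp in shMETTL3 and 1567 bp in shControl (0.103), to RRM2B, a p53-induced ribonucleotide reductase subunit, at 975 and 1279 bp (0.762). The medians of the p53 targets thus lay near those of all genes.

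**Figure D3:**
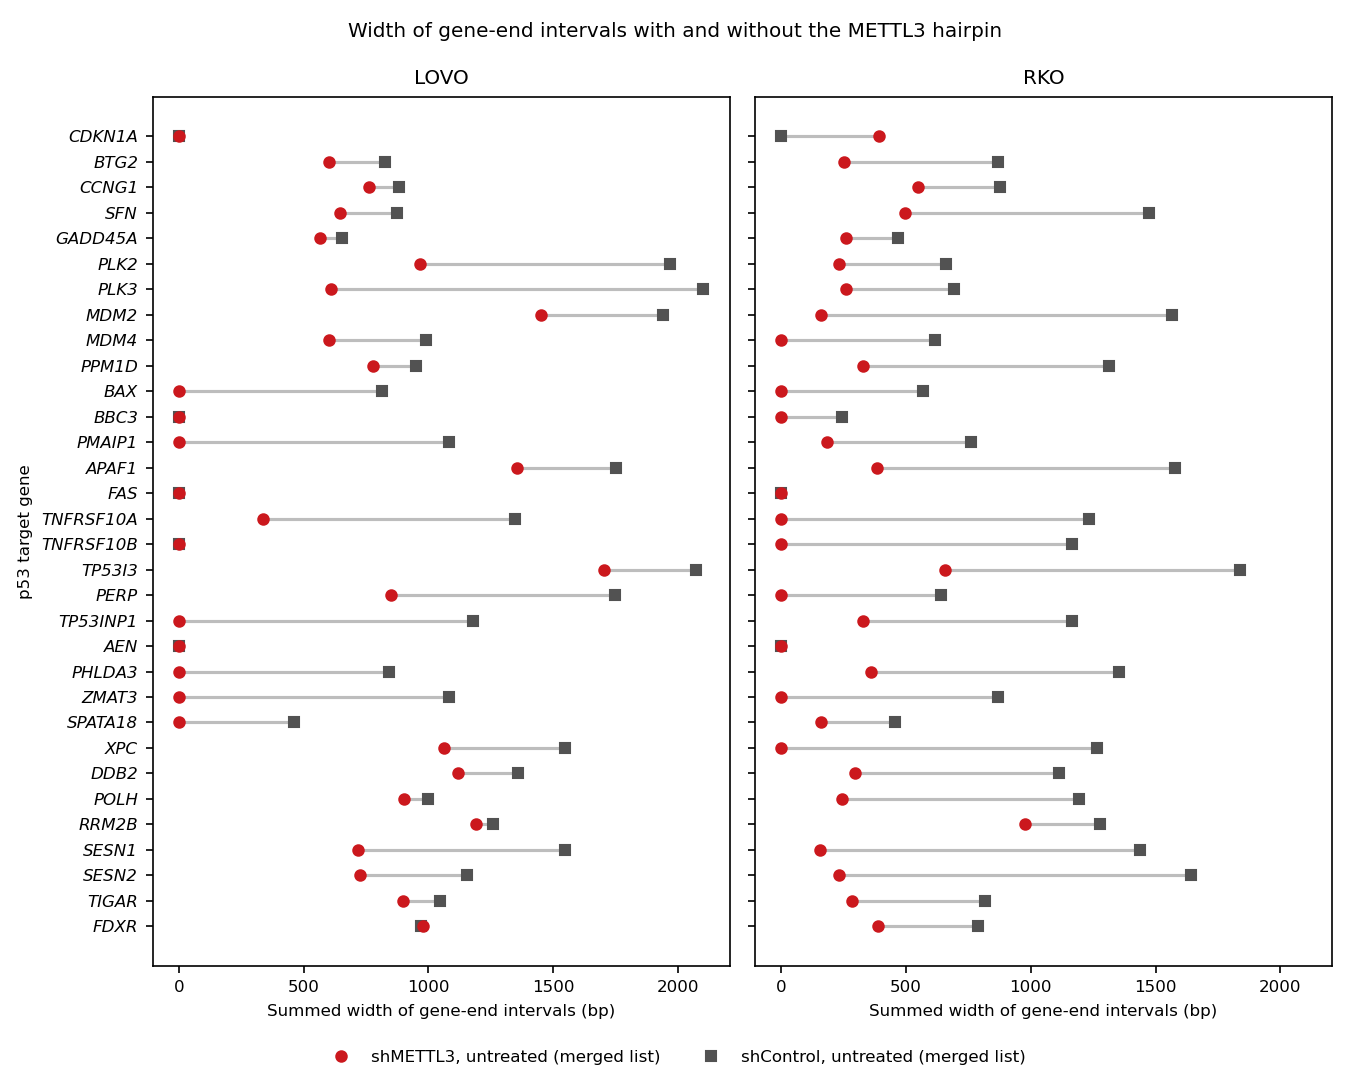
Summed width (bp) of the gene-end intervals of each p53 target gene in the merged lists of untreated shMETTL3 (circles) and untreated shControl (squares); 0 means no such interval. Circles lie left of squares at 20 of 21 kept genes in LOVO and 21 of 21 in RKO, and CDKN1A in RKO is the only gene with a circle alone above 0.

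Of all intervals of the merged shControl lists at these loci, 37 of 65 in LOVO (56.9%, 44 to 69.2) and 28 of 78 in RKO (35.9%, 25.3 to 47.6) overlapped a shMETTL3 interval, against 47.5% and 23.1% of the whole lists. The number of intervals at the locus was smaller with shMETTL3 in both lines at 16 of the 32 genes (50%), against 40.6% of 17294 genes with any interval, and larger in both at none, against 0.0173%. The 2 untreated shControl lists differed from each other as well. In the scored list, set against the merged one, none of 27 genes in LOVO (3.09% of all genes) and 1 of 29 in RKO, SPATA18 (14.4%), had no gene-end interval, while BBC3 and TNFRSF10B gained one in LOVO (2 of 5, against 12.2%) and no gene did in RKO (0 of 3, against 1.5%).

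The 7 arrest genes had an interval at a gene end or listed start in every list. CDKN1A encodes p21, the cyclin-dependent kinase inhibitor behind the G1 arrest of p53, and lies on chromosome 6 from 36676463 to 36687332 (hg38), with its listed start at 36678714. Intervals over or within 1 kb of this start stood in 9 of 10 lists, all but untreated RKO shMETTL3. In LOVO the interval on the start was 605 bp wide in shMETTL3 with olaparib, 279 bp in untreated shMETTL3, 468 bp in shControl with olaparib, and 324 and 606 bp in the scored and merged shControl lists. The gene-end interval that RKO shMETTL3 cells gained lay at the other end of the gene, from 36686806 to 36687197, so that CDKN1A counted as gained by the gene-end rule and as lost at its listed start. A further region centred at -11.4 kb from the start (36667127 to 36667470) was present in all 5 RKO lists, untreated shMETTL3 included, and in no LOVO list. Its score lay above 72.8% of the list in RKO shMETTL3 with olaparib, 83.7% in shControl with olaparib and 24.5% in scored shControl. The best interval within 1 kb of the start lay above 8.17%, 18.3% and 53% of the same lists, so the order of the regions differed between lists.

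GADD45A, a stress sensor that blocks the G2 to M transition, had its gene-end interval in all 10 lists. At this end of the gene (67685201 on chromosome 1) the interval was 457 bp wide in shMETTL3 with olaparib, 567 bp in untreated shMETTL3, 412 bp in shControl with olaparib, and 451 and 654 bp in the scored and merged shControl lists of LOVO. In RKO the same widths were 362, 260, 352, 361 and 468 bp. A second interval, inside the gene, was present in 9 lists and missing in untreated RKO shMETTL3 alone. PLK3, a Polo-like kinase of the stress response, had 8 intervals at its locus in the 2 merged shControl lists together, the most after DDB2 and AEN with 9 each. The interval at its start (44800377 on chromosome 1) stood in all 10 lists, and was 609 and 259 bp wide in untreated shMETTL3 against 856 and 694 bp in merged shControl of LOVO and RKO. A region centred at -8.76 kb from the start, beside BEST4, was present in all 5 LOVO lists and no RKO list.

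BTG2, an antiproliferative cofactor, CCNG1, an atypical cyclin, PLK2, another Polo-like kinase, and SFN, the 14-3-3 sigma protein that holds mitotic kinases in the cytoplasm, also had a gene-end interval in all 10 lists. At SFN the interval in all lists lay past the 3′ end, and the one on the start was present in 6 lists, being absent from untreated shMETTL3 of both lines, merged shControl of LOVO and shMETTL3 with olaparib of RKO. The PLK2 half-site shown above was covered in all 5 LOVO lists and in no RKO list, although each RKO list had an interval at that gene end.

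The inhibitors of p53 differed among themselves. MDM2, the ubiquitin ligase that degrades p53, has a constitutive and an internal, p53-responsive promoter, with listed starts at 68808172 and 68808177 and at 68809017 and 68809024 on chromosome 12. A gene-end interval stood in all 10 lists. In RKO shMETTL3 the single interval, 161 bp, covered both internal starts and the pair of half-sites printed above, and left the outer starts uncovered, while the merged shControl interval of 1567 bp spanned both promoters. In LOVO both promoters lay under 1 interval in each merged list, 1451 bp in shMETTL3 and 1938 bp in shControl. The pair of half-sites of MDM2 was covered in all 10 lists, which of the pairs shown above was true of MDM2 alone: the DDB2 pair was covered in 8 lists, the AEN pair in 9 and the FAS pair in the 2 merged shControl lists.

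MDM4, the partner of MDM2 that masks the activation domain of p53, lost its only gene-end interval in RKO shMETTL3, which held no interval at the locus, against 618 bp in shControl. In LOVO it was 601 bp wide in shMETTL3 and 990 bp in shControl. PPM1D, the phosphatase WIP1 that ends p53 signalling, kept its start interval in all 10 lists.

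**Figure D4:**
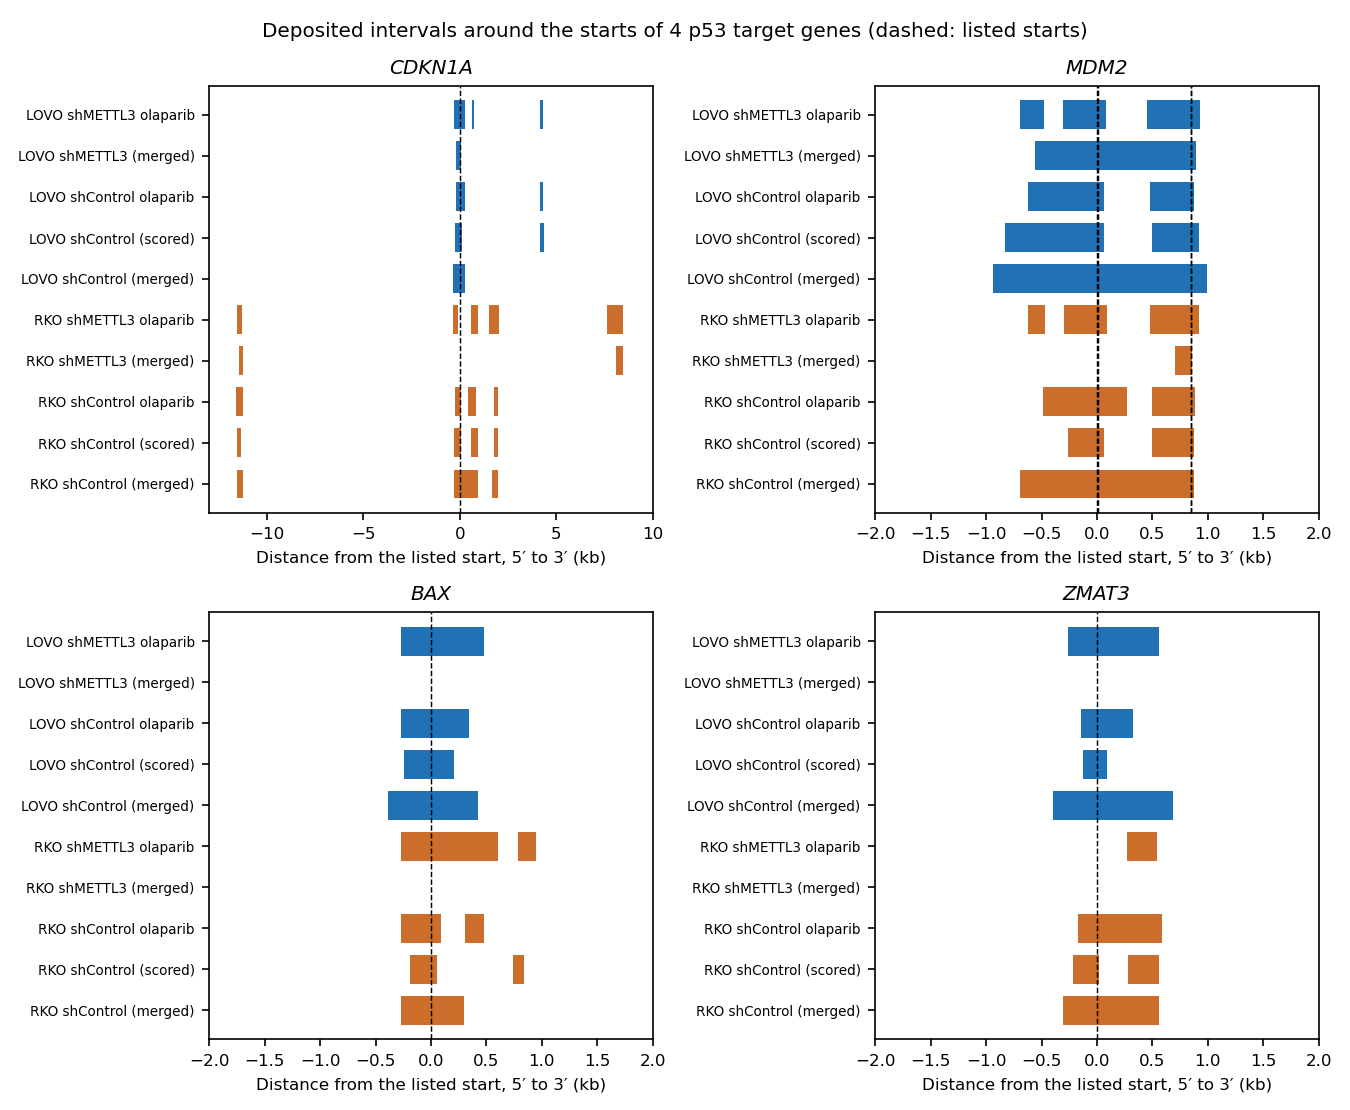
Deposited intervals (bars; blue LOVO, orange RKO) by distance in kb from the first listed start of CDKN1A, MDM2, BAX and ZMAT3, in the direction of transcription, with listed starts as dashed lines. No bar lies at the BAX and ZMAT3 starts in untreated shMETTL3, the bar left at MDM2 in RKO shMETTL3 lies at the internal start, and the bars near -11.4 kb of CDKN1A are in RKO lists only.

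Among the genes of mitochondrial apoptosis, BAX, BBC3 and PMAIP1 lacked a gene-end interval in some lists and APAF1 in none. BAX lies on chromosome 19 from 48954875 to 48961798, and its start interval was present in 8 lists. In LOVO it was 747 bp wide in shMETTL3 with olaparib, absent in untreated shMETTL3, 614 bp in shControl with olaparib, and 453 and 815 bp in the scored and merged shControl lists. In RKO the widths were 878 bp, absent, 357, 250 and 568 bp. Its best score at a gene end ranged from above 9.79% of a list to above 70.3%. The 250 bases before the start (chr19:48954625-48954874, plus strand) are shown because BAX and ZMAT3 were the 2 starts lost in both lines; 25 CpG pairs are in capitals, and G and C made up 62.8% of the bases.
BAX: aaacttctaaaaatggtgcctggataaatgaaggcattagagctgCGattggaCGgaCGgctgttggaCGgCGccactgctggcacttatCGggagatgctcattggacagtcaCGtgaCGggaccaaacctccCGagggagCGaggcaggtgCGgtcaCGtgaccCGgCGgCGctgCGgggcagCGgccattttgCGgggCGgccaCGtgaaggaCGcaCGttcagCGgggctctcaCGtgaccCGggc

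ZMAT3 lies on chromosome 3 from 179017223 to 179072513 on the minus strand. Its start interval was 823 bp wide in LOVO shMETTL3 with olaparib, absent in untreated shMETTL3, 471 bp in shControl with olaparib, and 213 and 1082 bp in the scored and merged shControl lists. In RKO shMETTL3 with olaparib a 272 bp interval lay inside the gene next to the start, untreated shMETTL3 had none, shControl with olaparib had 756 bp and merged shControl 868 bp. The scored RKO shControl list had 2 shorter intervals there, of 282 and 238 bp. The 250 bases before its outer start (chr3:179071810-179072059, minus strand) held 31 CpG pairs, in capitals, and 75.2% G and C.
ZMAT3: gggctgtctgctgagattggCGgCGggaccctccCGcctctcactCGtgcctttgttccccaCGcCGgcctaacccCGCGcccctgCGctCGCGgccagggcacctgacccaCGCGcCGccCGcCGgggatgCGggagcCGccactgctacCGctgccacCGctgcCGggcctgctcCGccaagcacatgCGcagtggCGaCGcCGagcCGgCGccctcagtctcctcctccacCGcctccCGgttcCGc
Over the 300-base windows of the 26 genes the median was 68.7% G and C with 29 CpG pairs, against 64.7% and 24 over all genes. BAX had 67.3% and ZMAT3 71.7% in the same windows.

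BBC3, which encodes the BH3-only protein PUMA, lies on chromosome 19 from 47220824 to 47232860 on the minus strand. A gene-end interval stood in 6 lists, and its best score at an end or listed start was low, above 3.16% to 14.5% of the intervals of a scored list. In LOVO the interval at the start was 293 bp in shMETTL3 with olaparib, absent in untreated shMETTL3, 290 bp in shControl with olaparib, 349 bp in scored shControl and absent in merged shControl. In RKO it was 147 bp in shMETTL3 with olaparib, absent in untreated shMETTL3 and in shControl with olaparib, 208 bp in scored shControl and 245 bp in merged shControl. RKO shControl with olaparib did have an interval inside the gene within 1 kb of the listed start. With the lowest 25% of each list left out, BBC3 had a gene-end interval in 0 lists, which for the scored lists follows from the score range above. PMAIP1, the BH3-only protein NOXA, lost its start interval in LOVO shMETTL3 (1082 bp in shControl), and in RKO it was 182 bp wide in shMETTL3 against 762 bp in shControl. APAF1, the scaffold of the apoptosome, had a start interval in all 10 lists, which also lay within 1 kb of an end of IKBIP.

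The death receptors carry the extrinsic signal. FAS, on chromosome 10 from 88964050 to 89017059, had no gene-end interval in any list, but an interval at its listed starts (88990798 to 88991431) in 9 lists. In LOVO this was 622 bp wide in shMETTL3 with olaparib, 907 bp in untreated shMETTL3, 660 bp in shControl with olaparib, and 542 and 1207 bp in the scored and merged shControl lists. In RKO it was 610 bp, absent in untreated shMETTL3, 721, 513 and 1048 bp. The interval also lies within 1 kb of an end of ACTA2, so it cannot be assigned to FAS alone. TNFRSF10A and TNFRSF10B encode TRAIL receptors on chromosome 8. TNFRSF10A had a gene-end interval in 9 lists, with 337 bp in untreated shMETTL3 and 1348 bp in merged shControl of LOVO, and none in RKO shMETTL3, against 1233 bp in shControl. TNFRSF10B had one in 7 lists, none of them untreated shMETTL3. Only 6 of these lists had the region from 23068778 to 23069413. In scored RKO shControl the only gene-end interval lay at the other end (23019324 to 23019666), within 1 kb of an end of RHOBTB2. A region inside TNFRSF10B, 1.22 kb from its end (23067613 to 23068017) was present in all 5 RKO lists, untreated shMETTL3 included, and in 1 LOVO list, shMETTL3 with olaparib.

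Other members act in cell death by other routes. TP53I3, the oxidoreductase PIG3, lies on chromosome 2 from 24077433 to 24084834 and its best gene-end score lay above 83.3 to 95.6% of the intervals of a scored list. In the scored LOVO lists and in RKO shMETTL3 with olaparib that best score belonged to the end away from the start. The interval at the start of TP53I3 lay above 76 to 95.6%. In LOVO the interval at its start was 1024 bp wide in shMETTL3 with olaparib, 1000 bp in untreated shMETTL3, 1007 bp in shControl with olaparib, and 994 and 1092 bp in the scored and merged shControl lists. In RKO the widths were 989, 657, 1029, 983 and 996 bp. Untreated RKO shMETTL3 was the one list with a clearly narrower interval, and it also lacked the interval at the other end, which also lies within 1 kb of ends of SF3B6 and FAM228B. AEN, an apoptosis-enhancing nuclease on chromosome 15 from 88604683 to 88632281, had an interval at its listed start (88621340) in 9 lists, all but untreated RKO shMETTL3. The start interval was 309 bp in untreated LOVO shMETTL3 and 660 bp in merged shControl. A region of its 3′ flank (88638213 to 88639478) was present in all 10 lists. It was the only such region among 75 that lay away from all gene ends and from the listed starts of the target gene itself. Listed starts of other genes were not checked for these regions, so it may lie at the start of a neighbouring gene.
PERP, a desmosome and apoptosis protein, lost its start interval in RKO shMETTL3 (639 bp in shControl), and its gene-end intervals summed to 851 bp in shMETTL3 and 1748 bp in shControl of LOVO. Its 3′ flank held a region present in all 5 LOVO lists and no RKO list. TP53INP1, a nuclear stress protein, and PHLDA3, an inhibitor of AKT, lost the gene-end interval in LOVO (1179 and 840 bp in shControl), and in RKO had 329 and 359 bp in shMETTL3 against 1166 and 1353 bp in shControl. SPATA18, a mitochondrial quality factor, lost a 460 bp interval in LOVO, while RKO had 160 bp in untreated shMETTL3, 457 bp in merged shControl and none in the 3 scored lists.

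The repair genes include DDB2 and XPC, damage sensors of nucleotide excision repair, POLH, a translesion polymerase, and RRM2B. DDB2, on chromosome 11 from 47214454 to 47239217, had listed starts at 47214454 and 47214974 and gene-end intervals in all 10 lists. Its pair of exact half-sites, by the internal start, was covered in 8 lists, all but untreated shMETTL3 and scored shControl of RKO. In RKO shMETTL3 the interval left (297 bp) lay at the outer start, whereas at MDM2 the one left lay at the internal start. In LOVO 1 interval of 1118 bp in shMETTL3, and of 1360 bp in merged shControl, spanned both DDB2 starts. XPC lost both gene-end intervals in RKO shMETTL3 (1265 bp together in shControl), each within 1 kb of an end of another gene, LSM3 or TMEM43. POLH, whose start lies within 1 kb of an end of XPO5, had a start interval in all 10 lists. RRM2B, without a listed start, had a gene-end interval in all 10.
The metabolic targets SESN1 and SESN2, leucine sensors that restrain mTORC1, TIGAR, which limits glycolysis, and FDXR had a gene-end interval in all 10 lists. At a gene end or listed start TIGAR reached the highest score percentile of the 32 genes, above 99.1% of the scored shControl list of LOVO. At SESN1 an interval lay within 1 kb of the internal starts in 9 lists, all but untreated shMETTL3 of LOVO, and the half-site there lay under an interval in 2 RKO lists only, shMETTL3 with olaparib and merged shControl.

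Within shControl cells, the scored list with olaparib was set against the scored untreated list to ask whether the inhibitor opened or closed p53 targets. Gene-end states hardly differed. No gene lost (0 of 29, against 7.47%) or gained (0 of 3, against 3.49%) a gene-end interval in LOVO. In RKO, BBC3 lost one (1 of 28, against 2.36%) and none gained (0 of 4, against 11.1%). Of the untreated intervals at the loci, 90.5% in LOVO (82.1 to 95.8, list 71.8%) and 89.7% in RKO (79.9 to 95.8, list 88.5%) had a partner under olaparib. No gene had more intervals in both lines (2.23% of genes) and none had fewer in both (4.51%). The canonical target CDKN1A had the same number of intervals at its locus with olaparib as without, 2 in LOVO and 4 in RKO. MDM2 likewise had 3 in each of these lists, but not the same 3. An interval in the 5′ flank stood in LOVO with olaparib and in RKO without it. One in the gene body stood in LOVO without olaparib and in RKO with it.

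shMETTL3 with olaparib was compared with shControl with olaparib, among the scored lists, to ask whether the hairpin mattered under the inhibitor. No gene lost a gene-end interval in either line (0 of 29, against 1.5% in LOVO; 0 of 27, against 1.79% in RKO). None gained one in LOVO (0 of 3, against 12.9%), and CDKN1A, at its 3′ end, and BBC3 did in RKO (2 of 5, against 8.38%). Intervals were more numerous at 10 of the 32 loci in both lines (31.2%, 16.1 to 50, against 24%), and fewer in both at none (0.335%). These were CDKN1A, MDM2, MDM4, BAX, BBC3, APAF1, TNFRSF10A, TNFRSF10B, TP53INP1 and PHLDA3. MDM2 had 7 intervals in shMETTL3 with olaparib and 3 in shControl with olaparib in both lines, and 3 of the 7 lay in the gene body. BAX had 4 and 2 in LOVO and 7 and 5 in RKO. Some of these are pieces of a single shControl interval or lie at a neighbouring gene. At BAX in LOVO, intervals of 283 and 496 bp overlapped a single shControl interval of 875 bp, within 1 kb of an end of FTL. In RKO, intervals of 492 and 447 bp lay within 1 kb of ends of FTL and GYS1. At MDM2 in both lines, separate shMETTL3 intervals likewise overlapped a single shControl interval at the outer starts.

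Intervals without a partner in shControl with olaparib were narrow and low in score. There were 29 in LOVO (28.2% of the shMETTL3 intervals at the loci, 40.5% of the list), with a median width of 182 bp against 441 bp for the shared ones, and a median score above 15.3% of the list against 56.2%. In RKO there were 36 (35.3%, list 33.1%), with medians of 181.5 bp against 399 bp and 14.5% against 43.2%. Most lay inside genes (15 in each line) or in flanks (8 and 12). The shMETTL3 lists under olaparib were also the longer, with 51462 against 32192 intervals in LOVO and 35455 against 25855 in RKO. With the lists of each pair at equal number, 1 gene instead of 10 had more intervals in both lines, and the share of all genes under this cut is not given here.

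**Figure D5:**
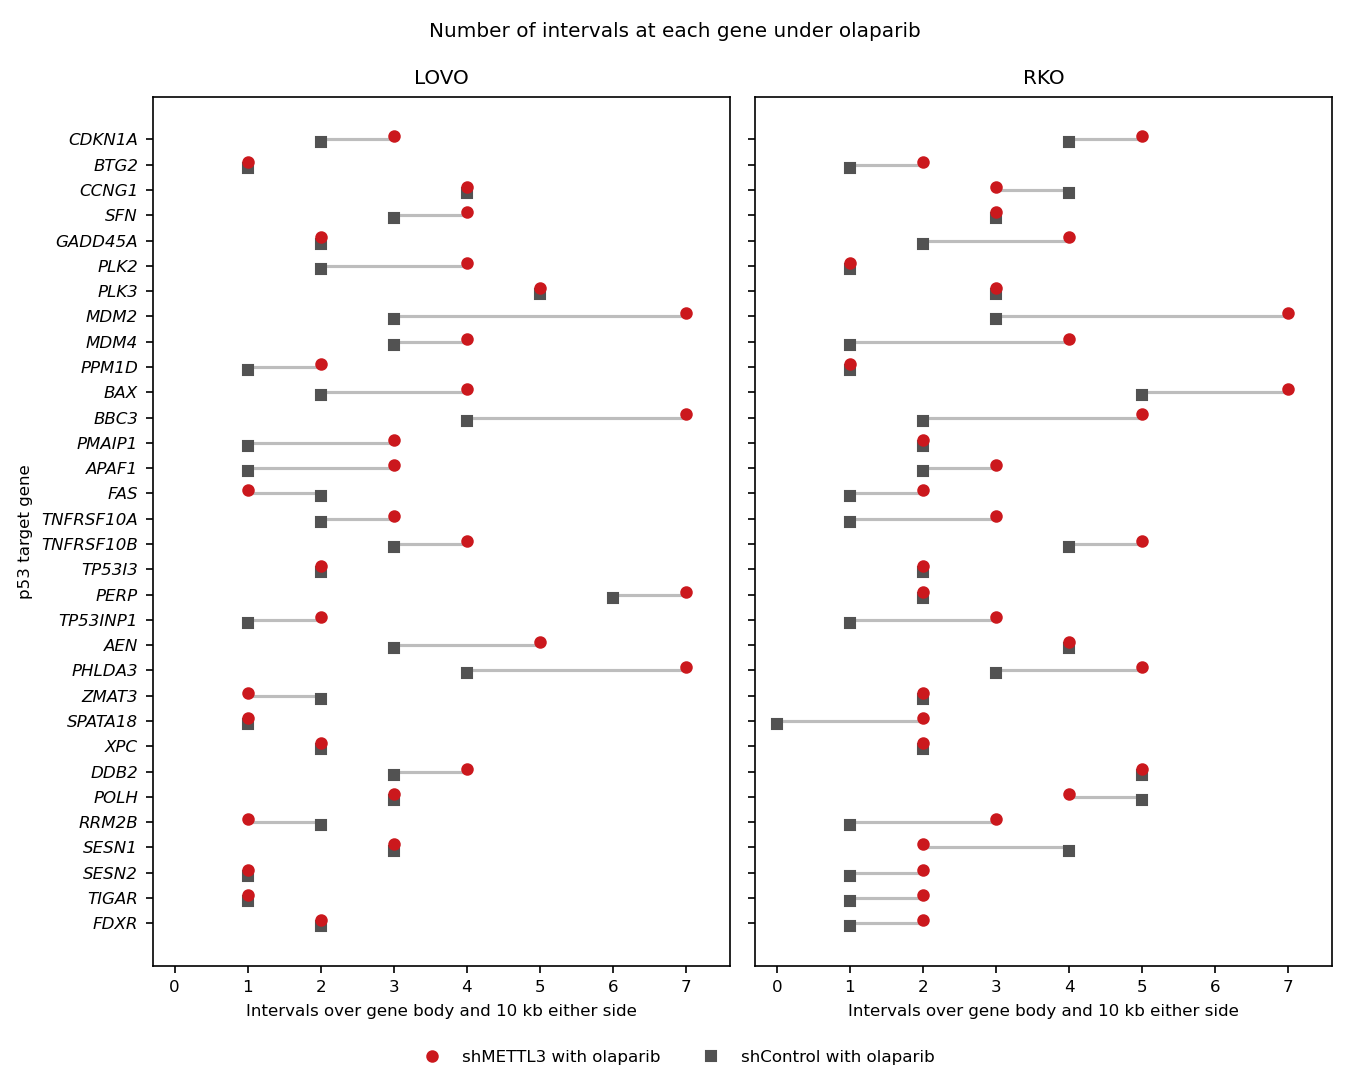
Number of intervals over the gene body and 10 kb either side at each p53 target gene in shMETTL3 with olaparib (circles) and shControl with olaparib (squares). MDM2 stands out with 7 against 3 in both lines, and at 10 genes the circle lies right of the square in both panels.

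In shMETTL3 cells olaparib could be set against no treatment only across forms, a scored against a merged list, and this comparison was added after the values were seen. The genes that had lost a gene-end interval in untreated shMETTL3 all had one in shMETTL3 with olaparib, while the SFN start in RKO lacked an interval in both. Gene-end intervals were gained by 8 of 11 genes in LOVO (72.7%, against 35.4%) and by 8 of 10 in RKO (80%, against 40.4%), BAX, BBC3, TNFRSF10B and ZMAT3 in both lines. The share of all genes that gained in both lines is not given here. For gains, here and in the other comparisons, the genes at risk include 7097 open at a gene end in none of the 10 lists. Those could not gain, and among the p53 targets only FAS and AEN were such genes, so the gain shares are not alike. No gene-end interval was lost in LOVO (0 of 21, against 0.279%) and SPATA18 lost one in RKO (1 of 22, against 0.394%). Form, list length (51462 against 16417 intervals in LOVO, 35455 against 6916 in RKO) and treatment cannot be told apart here. At equal numbers by score and width, LOVO gained 2 genes with 6 losses, and RKO gained 1 with 19 losses. The share of all genes under this cut is not given here, so these counts do not set the p53 targets apart.

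Joined over all lists, the intervals at these loci formed 141 regions. Of these, 19 (13.5%) were present in all 10 lists, against 6% of 72261 regions over the series, and 17 of the 19 lay at a gene end. Regions present in both lines numbered 70 (49.6%, against 31.5%). Regions in all 5 LOVO and no RKO lists numbered 2, at PLK3 and PERP (1.42%, against 8.07%), and the region upstream of CDKN1A was the only one in all 5 RKO and no LOVO lists (0.709%, against 0.599%). Gene ends make up a larger part of regions near genes than of all regions, and this was not adjusted for.

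Other genes of the pathway were counted by the same rule, and their counts lay within a few genes of the share over all genes. Of 24 regulators of p53, 5 of 21 lost the gene-end interval with untreated shMETTL3 in LOVO (23.8%, against 31.2%) and 11 of 22 in RKO (50%, against 54.1%), with USP7, CDKN2A and SIRT1 among those lost in both. USP7 is a deubiquitinase that spares MDM2 from degradation. Of 25 further p53 targets, 3 of 17 lost it in LOVO (17.6%) and 7 of 17 in RKO (41.2%), GDF15, a stress-induced cytokine, in both. With olaparib in shControl neither list lost one (7.47% of all genes in LOVO and 2.36% in RKO), and PIDD1, a death-domain protein, gained one in RKO (1 of 10 further targets, against 11.1%). With shMETTL3 under olaparib neither list lost one (1.5% and 1.79%). Gains there were HIPK2 among regulators (1 of 3) and PTP4A1 and ABCA12 among further targets (2 of 7) in LOVO, against 12.9%, and RPL11 (1 of 2) and GDF15 (1 of 9) in RKO, against 8.38%. Such small counts do not set these lists apart from all genes.

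The labelled cell type was checked at marker genes. Of 12 colon epithelial genes, 4 to 11 had a gene-end interval in the LOVO lists and 1 to 5 in the RKO lists, KRT8 in all 10. The share of all genes was 35.8 to 58.5% in the LOVO lists and 25.3 to 55.4% in the RKO lists. The epithelial share lay above that of all genes in the scored LOVO lists. It lay below that share in the merged LOVO lists and in every RKO list, so these markers do not settle the cell type. No list had one at the 4 endothelial genes, 0 to 2 of 6 fibroblast genes had one, and 0 to 3 of 6 leukocyte genes did, SPI1, LCP1 and CD3E among them. The part of other cells in the intervals at p53 targets was not tested.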

How the data were processed

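Libraries were made with a commercial ATAC-seq kit, per the labels' protocols. MACS2 2.2.7.1, DiffBind 3.0.15, Bowtie2 2.4.2, Trim Galore 0.6.6 and the build hg38 are named without roles, per the submitters' processing notes. Shifting, filtering and pooling of replicates are not given in the sources used here. In all 10 peak lists were deposited, 6 of them with a score per interval, whose MACS2 column is not stated (the authors' score); scores were used only to rank intervals within a list, as the share of the list's intervals with a lower score. Which untreated shControl list holds the second batch is not given. Depth is unknown, so shares carry only a 95% exact binomial interval (Clopper-Pearson) for counting error. The members and gene lists were chosen with earlier results of these data known.

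Gene bounds came from a RefSeq table on GRCh38.p14, which names no exons; strands and starts came from the RefSeq promoter table. A gene was open when an interval overlapped, by at least 1 bp, a window of 1000 bp either side of a gene end; lost or gained compares this state between 2 lists. Loci had flanks of 10000 bp. No test was computed, since there are no values per sample. Genes given in full were CDKN1A, MDM2, BAX, BBC3, FAS, GADD45A and TP53I3, members changed alike in both lines by the gene-end rule, and the 3 with most intervals in the merged shControl lists; sequences and other singled-out features were chosen with their values known. Some genes of the lists are not reported here by name. The overlap code was tested on simulated lists and the motif code on planted sites. Alternatives were windows of 500 and 2000 bp, 100 bp of overlap, the lowest 25% of each list (by score or width) left out, lists of equal number, listed starts only, flanks of 5000 bp, overlap of 50% and the other shControl list. Python 3.11.15, numpy 2.4.6, pandas 2.3.3 and scipy 1.17.1 were used.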

Additional observations from a re-analysis of the deposited data

Results flagged for a closer look

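The number of intervals at the 32 p53 target loci moved in opposite directions in the 2 lines when shControl cells were given olaparib. It differed by -7 in LOVO, with 77 intervals under olaparib and 84 without, and by 6 in RKO, with 74 under olaparib and 68 without. The difference between the lines was not tested, and the whole lists moved the same way, with 32192 against 41431 intervals in LOVO and 25855 against 21210 in RKO.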

How the results depend on the processing

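No paired analysis was possible because the lists are per group, and for the same reason no sample could be left out in turn. Of the alternatives, 77 counts of genes and 20 percentages stayed within the limits of the original, while 33 counts and 8 percentages moved. Shares over all genes are not given for the alternatives, so their counts are not read as results about the p53 targets. Most values that moved did so with lists of equal number. For untreated shMETTL3 against shControl this gave 3 genes lost and 7 gained in RKO, 80.5% of intervals kept in LOVO and 63.3% in RKO, and 1 gene with fewer intervals in both lines. For olaparib in shControl it gave 2 gained in LOVO, and 2 lost and 77.9% kept in RKO. For shMETTL3 under olaparib it gave 4 lost and 64.9% kept in LOVO, 3 lost, 0 gained and 70.3% kept in RKO, and 1 gene with more intervals in both lines. For olaparib in shMETTL3 it gave 6 lost and 2 gained in LOVO and 19 lost and 1 gained in RKO.

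The other shControl list gave 2 gained in RKO shMETTL3, 2 gained with olaparib in LOVO shControl, and 2 lost and 73.1% kept with olaparib in RKO shControl. With 50% overlap, RKO shMETTL3 kept 11.5%. Leaving out the lowest 25% gave, for olaparib in shControl, 1 lost and 81.5% kept in LOVO and 2 lost in RKO, and, for shMETTL3 under olaparib, 1 gained in LOVO and 1 lost and 5 gained in RKO. Listed starts alone gave 0 gained in RKO shMETTL3, 0 lost with olaparib in RKO shControl, and 1 lost and 0 gained in RKO shMETTL3 under olaparib. Windows of 2000 bp gave 0 gained in RKO shMETTL3, 0 lost with olaparib in RKO shControl, 2 gained in LOVO and 1 gained in RKO shMETTL3 under olaparib, and 0 lost with olaparib in RKO shMETTL3. Windows of 500 bp gave 2 lost with olaparib in RKO shControl and 1 gained in LOVO shMETTL3 under olaparib, and 100 bp of overlap 1 lost in RKO under the same comparison. The cause was not tested. Depth, replicate spread and batch cannot be read from these lists, and the counts are small.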
